A study of Arabidopsis thaliana with 6 samples.

Results

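The genes described here were those that read low on every array of whole Arabidopsis thaliana roots and high on every array of sorted root cells. A probe set was taken when its deposited signal intensity was under 50 on all 3 whole-root arrays and at least 500 on all 3 sorted-cell arrays. Of 22810 probe sets on the array, 39 met both thresholds. Probe sets of the organelle genomes (9 by their number and 1 by a gene it pairs with) and 3 for CML23, STZ and ORA47 were left out, which left 26. The probe set left out by its gene pairs with mitochondrial rps7 and also with nuclear AT2G07696, and with it there would be 27. The platform annotation pairs 9 of the 26 with 1 gene and 1 with a pair of genes, and the other 16 are not listed there. They are therefore unnamed here, and their place in the nuclear genome and outside the gene families left out by name was not checked.

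The study asked how making protoplasts and passing them through a cell sorter changes transcript levels of roots short of iron. Columbia seedlings, 6 days after germination, had in both groups been moved for 24 hours to medium without ferrous sulfate but with ferrozine, an iron chelator, at 0.3 mM. One group gave RNA from roots harvested whole (3 arrays), the other from root protoplasts, all of which were collected after the sorter without selecting a cell type (3 arrays). No group on full iron was part of this comparison, the labels do not say whether replicates came from separate cultures, and wall digestion, time in buffer and sorting are joined in 1 group and cannot be told apart. In RNA of mixed cells a gene with fewer expressing cells and one with less RNA per cell cannot be told apart either.

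A protoplast is a plant cell whose wall has been digested by cellulases and pectinases. Plant cells perceive wall fragments, wounding and a change of osmotic pressure at the plasma membrane, and calcium influx, kinase cascades and a first wave of transcription follow. Many genes of that first wave are nearly silent in undisturbed tissue and code for transcription factors, ubiquitin ligases, wall proteins or short proteins of unknown function.

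All 26 probe sets were chosen by their levels in both groups, so the values that follow describe the choice and no test was made of them. Whole-root means ran from 2.57 to 44.6, with a median of 25.6, and sorted-cell means from 697 to 4010.5, with a median of 1159.9. For the 25 with a whole-root signal above background on at least 1 array, the ratio of the group means ran from 18.3 to 309, with a median of 49.9. On the log2 scale the median difference of the 26 was 5.70, also with the remaining probe set at its bound, against -0.16 over the 13647 probe sets tested across the array. Among those 25 the lowest sorted-cell array lay 12.3 to 123 times above the highest whole-root array of the same probe set. Within whole roots the 26 lay between percentiles 6.88 and 42.5 of the 22746 probe sets that are not controls, and within sorted cells between percentiles 84.9 and 99.0. Hence probe sets from the lower part of the intensity range in whole roots stood in the upper part in sorted cells.

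**Figure D1:**
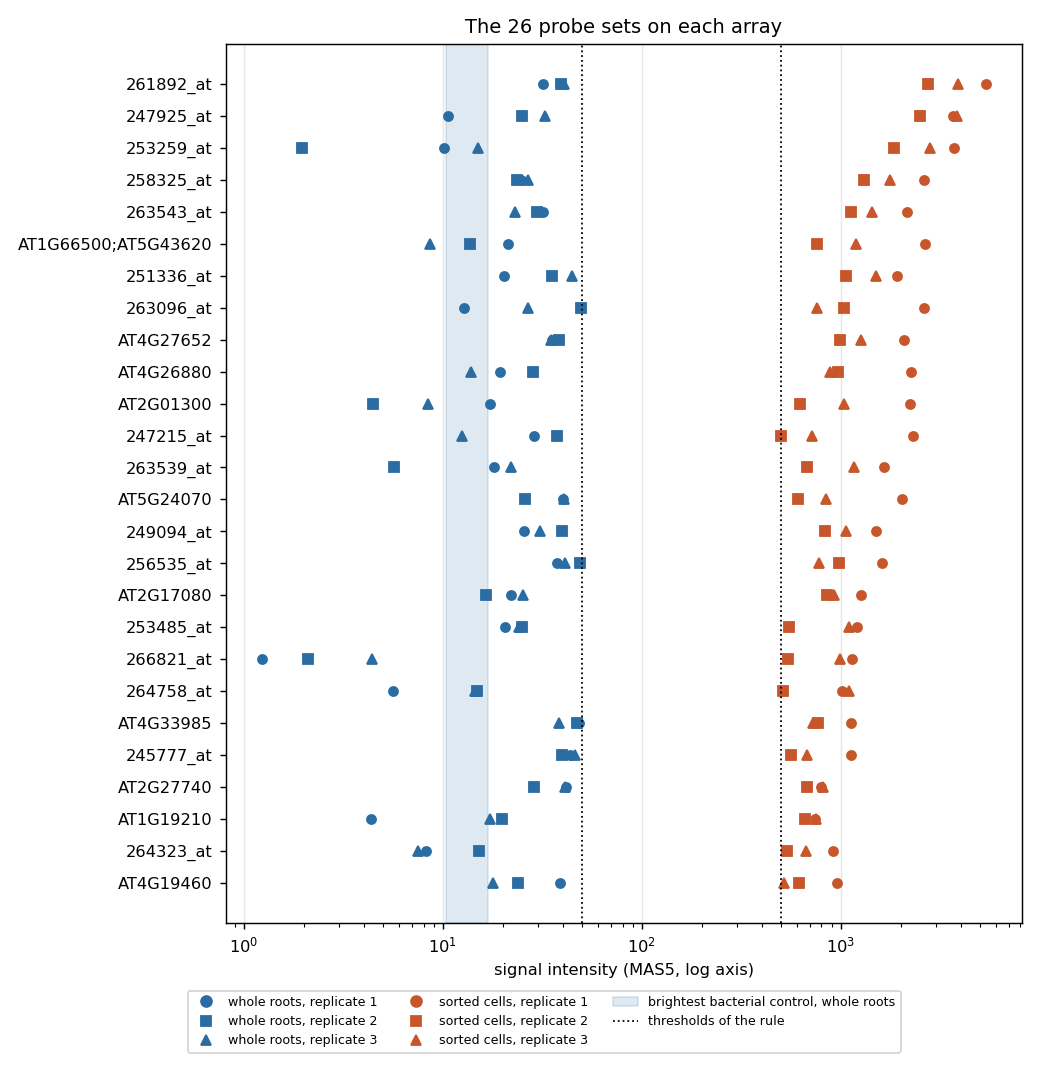
Signal intensity of the 26 probe sets (rows, by falling sorted-cell mean) on a log axis, with 1 symbol per array, whole roots in blue and sorted cells in orange. The dotted lines mark the thresholds of 50 and 500, and the blue band spans the brightest bacterial control probe set on the whole-root arrays (10.4 to 16.8); most blue symbols lie to the right of that band.

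Most of the 26 read above the bacterial controls in whole roots. Whether each stood above unspecific signal of its own probes was not tested. As a background level served the highest reading among 27 bacterial control probe sets on an array, which was 16.8, 11.8 and 10.4 on whole-root arrays 1, 2 and 3. Of the 26 probe sets, 16 read above that level on all 3 whole-root arrays, 6 on 2 arrays, 3 on 1 array and 1 on none. The probe set on none was 266821_at, unlisted, with 1.23, 2.09 and 4.40 in whole roots and 1136.5, 544.4 and 990.5 in sorted cells. Since its whole-root signal has only an upper bound, its difference is given as at least 66.9-fold. Every sorted-cell array of all 26 read above its own background level, which was 57.4, 36.3 and 14.3 on arrays 1, 2 and 3.

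Among the named genes, those tied to transcription came from different families. AT1G19210 codes for a DNA-binding protein of the AP2/ERF family, which holds many stress and ethylene regulators. It read 4.37, 19.9 and 17.2 in whole roots and 742, 659.6 and 747 in sorted cells. The sorted-cell arrays stood close together, at 716 ± 49.3 (mean ± SD, n = 3), whereas the whole-root values straddled the background level, with array 1 under it. Another probe set, 256356_s_at, pairs with both AT1G66500 and AT5G43620, related genes for proteins like the Pcf11 subunit of the complex that cleaves the 3′ end of messenger RNA precursors. It read 21.2, 13.7 and 8.56 in whole roots and 2653, 757 and 1195 in sorted cells, and which of the pair gave the signal cannot be read from it. Here sorted-cell array 1 was far above the other two, and the SD of 993 was large beside the mean of 1535.

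Enzymes and secreted proteins formed a second group. AT5G24070, a class III peroxidase gene of the family that acts on phenolic compounds of the wall, read 40.05, 25.9 and 40.6 in whole roots and 2027, 611 and 839 in sorted cells. AT4G19460, which codes for a protein of the glycosyltransferase superfamily, read 38.6, 23.8 and 17.8 in whole roots and 956, 618 and 518 in sorted cells, the lowest sorted-cell mean of the 26 (697 ± 229.8, SD, n = 3). Both thus stood above background on each whole-root array. AT4G26880, for a small cysteine-rich protein of the STIG1 family first described in stigmas, read 19.3, 28.2 and 13.8 in whole roots and 2253, 973 and 879 in sorted cells. In this gene too sorted-cell array 1 was the high one, and arrays 2 and 3 were alike.

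The other named loci, 5 in all, code for proteins with no settled role. AT2G01300 had the largest ratio of the named genes, 129-fold between group means, with 17.2, 4.44 and 8.40 in whole roots and 2222, 626 and 1039.5 in sorted cells. Only whole-root array 1 read above background for it, so the size of that ratio is imprecise. AT4G27652 was steady in whole roots, at 35.4, 38.5 and 35.1, and read 2075, 987.5 and 1264 in sorted cells. AT2G17080, for a protein of the plant-specific DUF241 family, read 21.9, 16.4 and 25.2 in whole roots and 1267, 849 and 923 in sorted cells. Both showed narrow whole-root groups and a sorted-cell array 1 above the others. AT4G33985 (DUF1685 family) read 48.4, 47.0 and 38.4 in whole roots, close under the threshold, and 1125, 773 and 726 in sorted cells. AT2G27740 (DUF662 family) read 41.7, 28.6 and 40.9 in whole roots and 794, 676 and 813.5 in sorted cells. Its sorted-cell arrays were nearly as close together as those of AT1G19210, at 761 ± 74.5 (SD, n = 3).

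The brightest of the 26 in sorted cells were all unlisted. Probe set 261892_at read 31.9, 39.2 and 40.5 in whole roots and 5387, 2752 and 3893 in sorted cells. Probe set 247925_at read 10.6, 24.9 and 32.7 in whole roots and 3685, 2493 and 3856 in sorted cells. Both stood at percentiles 97.3 to 99.0 of the sorted-cell arrays. The third by sorted-cell mean, 253259_at, had 10.1, 1.95 and 15.1 in whole roots and 3711, 1851 and 2823 in sorted cells, a ratio of 309 between group means. Only whole-root array 3 read above background there, which leaves the size of this ratio imprecise. Next came 258325_at, with 24.8, 23.5 and 26.6 in whole roots and 2632, 1302 and 1770.2 in sorted cells, where the whole-root SD of 1.59 was the smallest of the 26. The remaining 11 unlisted probe sets had sorted-cell means of 704 to 1574 and ratios of 18.3 to 76.1.

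The thresholds cut through a continuous range, as the plot of the lowest sorted-cell against the highest whole-root intensity shows. Of 9021 probe sets under 50 on all whole-root arrays, 6512, or 72.2%, were also under 50 on all sorted-cell arrays. A lowest sorted-cell value of at least 100 was reached by 313 of the 9021, at least 250 by 103, at least 500 by 39 and at least 1000 by 15. The 39 are 0.171% of the 22746 probe sets that are not controls. With the groups exchanged, 7324 probe sets were under 50 on all sorted-cell arrays, and 15 of them, 0.0659% of the 22746, read at least 500 on all whole-root arrays.

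**Figure D2:**
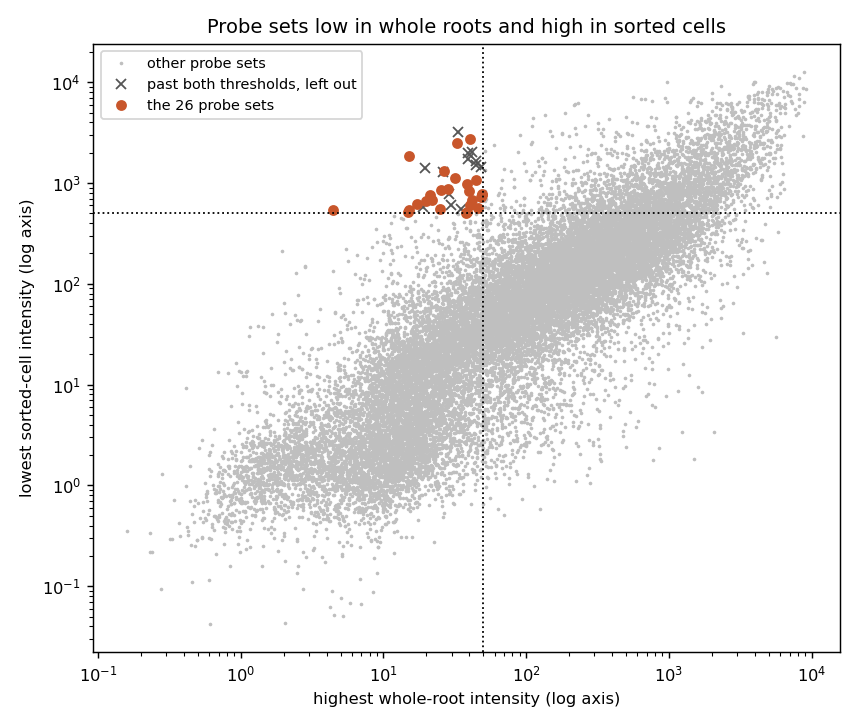
Highest whole-root intensity (horizontal, log axis) against lowest sorted-cell intensity (vertical, log axis) for each of 22746 probe sets. Dotted lines mark 50 and 500; the 26 probe sets (orange) and the 13 left out (crosses) lie in the upper left field, with no gap between them and the grey points at its borders.

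Just inside the whole-root threshold lay 263096_at, whose highest whole-root value was 49.2, 256535_at (48.8) and AT4G33985 (48.4). Just outside lay AT5G51520, for a protein of the invertase and pectin methylesterase inhibitor family, at 51.0 and with sorted-cell values of 1108, 662 and 695. AT2G34340 (51.5), AT3G27880 (52.4), AT4G28290 (63.8) and the unlisted 257536_at (51.4) were the next. On the side of sorted cells the nearest inside were 247215_at, with a lowest value of 500.5, 264758_at (515) and AT4G19460 (518). Just outside stood AT5G60630 (488), AT1G48070 (474), AT2G07695 (469), the unlisted 255823_at (455.5) and AT1G44830 (419.5). AT1G44830, a further AP2/ERF gene, read 29.8, 40.2 and 30.9 in whole roots and 483.5, 419.5 and 499 in sorted cells. It missed the threshold on all 3 sorted-cell arrays, by little on arrays 1 and 3.

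The sorted-cell arrays differed among themselves at these probe sets in a common direction. Array 1 was the highest of the sorted-cell arrays for 22 of the 26, array 3 for 4 and array 2 for none, and array 2 was the lowest for 21. The median ratio of array 1 to array 2 was 1.98, that of array 1 to array 3 was 1.45 and that of array 3 to array 2 was 1.32. Of 2153 other probe sets with sorted-cell means in the same range, array 1 was highest for 33.5%, and the median ratio of array 1 to array 2 was 0.905. Of the 873 among these that limma called higher in sorted cells, array 1 was highest for 47.2%, with a median ratio of 1.07. No test was made of these shares, since the rule used the same arrays.

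**Figure D3:**
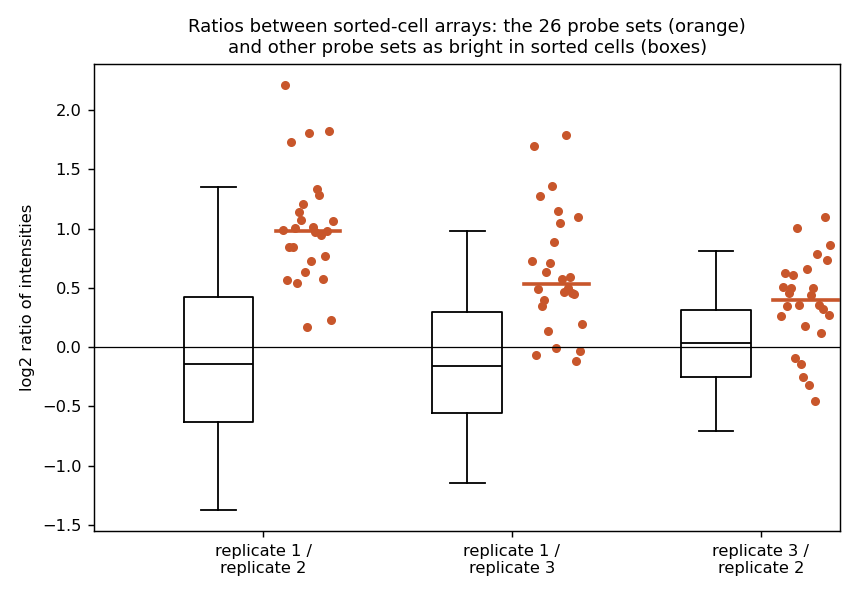
Log2 ratios of intensity between pairs of sorted-cell arrays for the 26 probe sets (orange points, bar at the median) and for 2153 other probe sets with sorted-cell means in the same range (box from quartile to quartile with the median, whiskers at percentiles 5 and 95). The orange points for array 1 over array 2 all lie above 0, with a median ratio of 1.98 before the log, while the box is centred near 0.

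Array 1 was also often the highest for probe sets that came up less far, whereas arrays 2 and 3 were closer there. Of 238 others with whole-root values under 50 and a lowest sorted-cell value of at least 100 but under 500, array 1 was highest for 72.3%, the median ratio of array 1 to array 2 was 1.56 and that of array 3 to array 2 was 1.06. Array 2 was the lowest for 54.2% of them, against 80.8% of the 26. Array 1 was highest for all 10 organelle probe sets that met the thresholds (median ratio to array 2 of 2.83, with array 3 at 0.929 of array 2), and for 2 of the 3 stress genes left out by name (1.63). The spread over the 26 was wide, from a ratio of array 1 to array 2 of 1.13 in AT1G19210 to 4.64 in 247215_at. Control probe sets for the 3′ and 5′ ends of housekeeping transcripts differed between these arrays as well, though not in every pair. The log2 difference between the ends of actin was 5.53, 4.09 and 3.37 on sorted-cell arrays 1, 2 and 3, against 1.60, 1.61 and 1.85 in whole roots. That of GAPDH was 2.46, 1.42 and 1.20 against 0.64, 0.39 and 0.43 in 1 pair and 5.12, 3.41 and 2.44 against 0.67, 0.69 and 0.91 in another. In a second actin pair it was 4.85, 5.35 and 5.19 against 4.84, 4.81 and 5.73, so array 1 was the lowest of the sorted-cell arrays there. The part of these differences in the ratios was not tested.

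Among themselves the 26 kept much of their order from array to array. Spearman's rho of log2 intensities was 0.63 for sorted-cell arrays 1 and 2, 0.64 for arrays 1 and 3 and 0.65 for arrays 2 and 3, across 26 probe sets that share each array's RNA and are not independent. For whole-root pairs it lay at 0.63 to 0.70. The median SD of log2 intensity was 0.51 among sorted-cell arrays and 0.54 among whole-root arrays for the 26, against 0.37 and 0.18 over the 13647 probe sets tested. Whole-root signals of the 26 thus varied more between arrays than those of a typical, brighter probe set.

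Genes next to the named members on the chromosome were not part of the choice, and some of them rose too. The order of protein-coding genes gives 18 neighbours to the 9 genes, of which 11 have a probe set with 1 gene and 7 were bright enough to be tested. By limma, 3 of the 7 were called higher in sorted cells and 0 lower (2 lower at an unadjusted p under 0.05). Of the 3, AT4G27654 and AT2G17070 were bright enough to be tested only through their sorted-cell signal (whole-root means of 10.4 and 22.3). Neighbours dim in both groups were left out, so 3 of 7 is no estimate for all neighbours. With no brightness filter both genes were still called higher (limma adjusted p = 8.04e-05 and 1.76e-05). Over all tested probe sets limma called 24.7% higher and 30.7% lower, 55.4% in all. AT4G27654, beside AT4G27652, read 8.05, 11.6 and 11.5 in whole roots and 970.1, 173 and 333 after sorting (limma adjusted p = 0.000109, with a log2 difference of 5.23 and an SE of 0.56). The groups did not overlap, array 1 was again the highest, and 1 of 3 whole-root arrays read above background; without sorted-cell replicate 1 the log2 difference was 4.55. AT2G17070, beside AT2G17080 and of the same DUF241 family, read 18.6, 15.5 and 32.8 in whole roots and 389.6, 328 and 372 after sorting (limma adjusted p = 2.17e-05, with a log2 difference of 4.102 and an SE of 0.31). Related neighbours can share signal through like sequence, which was not tested. AT4G33980, beside AT4G33985, rose from 78.9 ± 27.5 to 195 ± 66.3 (mean ± SD of 3 arrays; limma adjusted p = 0.011, with a log2 difference of 1.31 and an SE of 0.35). The other 4 tested neighbours, 1 each of AT4G27652, AT4G19460, AT4G26880 and AT2G27740, did not pass. That of AT4G26880, AT4G26870, stood at -0.48 (log2) and passed as lower without sorted-cell replicate 2 (-0.59, limma adjusted p = 0.0409).

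Gene families with members in early stress signalling were looked up by symbol. None of the 26 was matched this way, since AT1G19210 is listed by its locus alone, and the AP2/ERF family had 1 matched gene, too dim to be tested. U-box and RING ubiquitin ligases, several of which act in immune and drought responses, were the family with the most tested genes. Of its 12 tested genes, of 15 with a probe set, 8 rose, 1 fell and 3 missed the threshold. Their median log2 difference was 1.39, beside -0.16 and a share of 24.7% called higher over all probe sets tested. Of the 8, ATL63, PUB25 and PUB26 were bright enough to be tested only through their sorted-cell signal (whole-root means of 11.0, 41.3 and 45.2). With no brightness filter 9 of 15 rose and 1 fell, beside 4014 of 22746 probe sets called higher. PUB19, a regulator of drought responses, read 138, 133 and 67.2 in whole roots and 1787, 558 and 1261 after sorting (limma adjusted p = 0.000288, with a log2 difference of 3.33 and an SE of 0.44). PUB22 and PUB23, which dampen immune signalling, rose by 2.22 and 1.99 on the log2 scale (limma adjusted p = 0.00176 and 0.000429). In sorted cells PUB22 read 2319, 708 and 1023, and PUB23 1486, 1064 and 1471. ATL63 rose by 3.49 (limma adjusted p = 0.00145) from values near background, with 1 of 3 whole-root arrays above it. XERICO, a RING protein that raises abscisic acid, stood at 0.34 and PUB49 at -0.30 on the log2 scale, and neither passed. PUB43 was the gene that fell, at -0.69 (limma adjusted p = 0.0142), and its call ended when whole-root replicate 2 was left out (limma adjusted p = 0.059) or replicate 3 (0.0559).

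**Figure D4:**
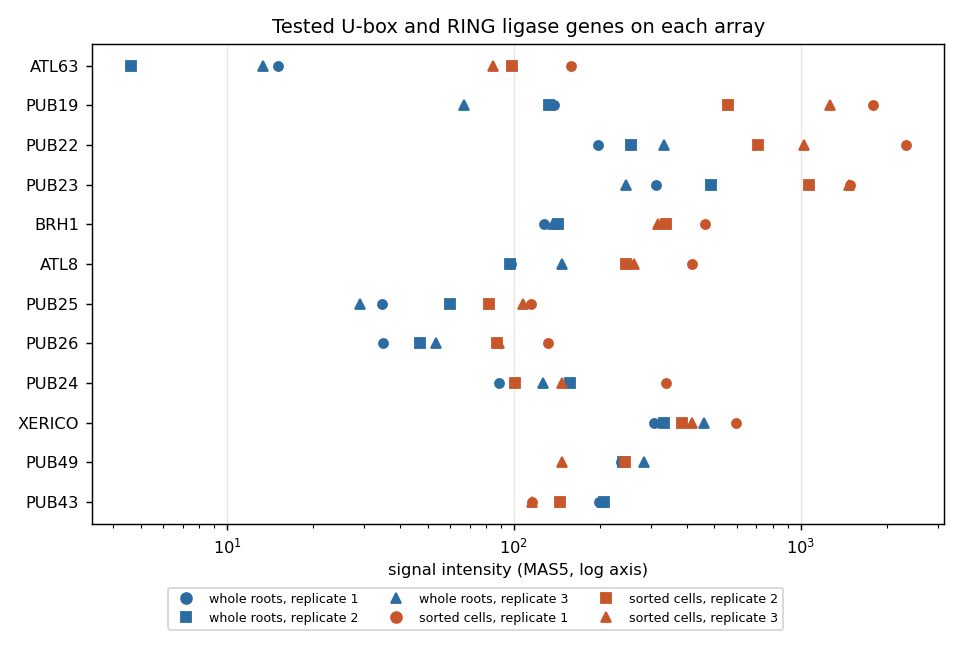
Signal intensity (log axis) of the 12 tested U-box and RING ligase genes on each array, sorted by log2 difference, with whole roots in blue and sorted cells in orange. The upper 8 genes were called higher and PUB43 at the foot lower, beside 24.7% and 30.7% of all probe sets tested. PUB24, XERICO and PUB49 were not called. None of the 12 had whole-root arrays all under 50 together with sorted-cell arrays all at or above 500.

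The other families had at most 5 tested genes each. Of 5 bZIP transcription factor genes, BZIP53, a regulator of amino acid metabolism, rose from 733 ± 58.3 to 5395 ± 1643 (mean ± SD of 3 arrays; limma adjusted p = 4.21e-05, with a log2 difference of 2.83 and an SE of 0.25), 3 fell and 1 did not pass. The fall of BZIP61 (limma adjusted p = 0.0361) was lost under 8 alternatives, with adjusted p-values up to 0.14, and that of BZIP17 (0.0134) when whole-root replicate 3 was left out (0.0558). BZIP53 was thus bright in whole roots already, unlike the 26. Over all 13 families 29 genes were tested, of which 14 rose and 7 fell (48.3% and 24.1%, beside 24.7% and 30.7% over all probe sets tested). Some of the 13 had no tested gene. The ligases gave 12 of the 29 and 8 of the 14 rises. Outside them NTL, ACS, CRK, GRX480, BZIP53 and BHLH101 rose. Of these, NTL and BHLH101 were bright enough to be tested only through their sorted-cell signal (whole-root means of 14.3 and 40.1). With no brightness filter, 14 of the 42 family genes with a probe set rose and 6 fell. Beside them, 4014 of 22746 probe sets were then called higher and 4255 lower. EIN3 (-1.34 on the log2 scale), GLR3.3 (-1.21), BIK1 (-1.04) and the 3 bZIP genes fell. BIK1 missed the threshold with whole-root array 2 (limma adjusted p = 0.0519) or 3 (0.0535) removed. BHLH101 missed it with sorted-cell array 2 (limma adjusted p = 0.114) or 3 (0.0865) removed. In whole roots BHLH101 read 54.3, 59.8 and 6.23, with array 3 under background. Without that array its log2 difference was 1.18 rather than 2.25, and its call stayed (limma adjusted p = 0.0352). The reference table names 4 of the 29 as genes of other kinds (the symbols NTL, ACS, CBL and CRK), and without these 11 of 25 rose and 7 fell. Outside the ligases that left GRX480, BZIP53 and BHLH101 as rises, so the surplus of rises rested mainly on the ligases.

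Markers of single cell types were looked up as well. Of 25 listed markers of root cell types and green tissue, 8 had a probe set, and all 8 were tested. By limma 7 of the 8 fell and 0 rose (0 also at an unadjusted p under 0.05), with AGL42 of the stem cell niche not passing. Over all tested probe sets 30.7% were called lower and 55.4% either way. The part of cell type make-up in the levels of the 26 was not tested.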

How the data were processed

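RNA of 3 whole-root and 3 sorted-cell samples was measured on 1 Affymetrix array each. The signal intensities were used as deposited; they are linear MAS5 values, per the submitters' processing notes, whose version, scaling target and detection calls were not used here. Per the labels' protocols, RNA of both groups was amplified in 2 cycles before labelling. The members, families and lists were chosen with earlier results of these data known, and the neighbouring genes were added after values had been seen. The fit left out controls and, by mean over 6 arrays, the dimmest 40% of the rest, which kept 13647 probe sets and all 26 members. It was made on log2 intensities (limma 3.58.1, R 4.3.3; eBayes with a variance trend; sorted cells minus whole roots), with Benjamini-Hochberg adjusted p under 0.05 as a call. In simulations with 200 changed probe sets of 13647 it recovered 23.5% of log2 changes of 1, 71.9% of 2 and 91.5% of 4. The real fit called 7564, and the adjusted threshold depends on that number, so these shares do not carry over to it. A p-value covers just the variation among these 6 samples, whose replicates may be technical, and their number limits precision.

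The platform annotation pairs 13513 probe sets with 1 gene and 503 with several, and does not list 8730. Of the 13513, 13436 matched the reference gene table (TAIR10.1), used for names and gene order. The brightest probe set stands for a gene. Families were matched by symbol. Any member could be described, by gene or, for the 16 not listed, by probe set; values per array are given for members with a gene and for the brightest, and in a family for up to 4 called genes with the largest change and 2 others, from which the text takes a part. Where every array of a group was at or under the bacterial controls, a bound is given, from the mean log2 values of the brighter group and of the control level (or the gene's own signal, if higher). Same-numbered arrays did not deviate together: correlations of their deviations from group means were -0.29, -0.16 and -0.042. With 3 arrays per group this cannot settle whether the replicates were paired, and the fit treated them as unpaired. Promoter motifs were planned, but no promoter sequences were used here. Other values came from Python 3.11.15 (pandas 2.3.3, numpy 2.4.6, matplotlib 3.10.9). The alternatives tried were scaling, offset, filter, variance model, replicate block, each array left out and other thresholds.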

Additional observations from a re-analysis of the deposited data

How the results depend on the processing

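The number of members rests on the thresholds: whole roots under 25 left 9, whole roots under 100 gave 53, sorted cells at least 250 gave 77 and sorted cells at least 1000 left 6. Without 1 array each the rule gave 26 to 41, the highest without sorted-cell replicate 2. Leaving out an array only loosens the rule, so all 26 had to stay in. Quantile normalization gave 25 probe sets (23 shared with the 26) and median centring 26 (24 shared). The median log2 difference of the 26 was 4.84 with 16 and 3.71 with 64 added before the log, and ran from 5.46 to 5.88 without 1 array each; with the low whole-root signals, its size rests on that offset. Probe sets called over the array numbered 5397 to 8271 (7564 of 13647 tested as reported), among them 5976 to 8271 without 1 array each and 6815 with the replicate block. The lowest count was of 9098 tested, with the dimmest 60% left out, and with no filter 8269 of 22746 were called. Calls in the 13 families numbered 14 to 21 (21 of 29 tested as reported), 16 to 20 without 1 array each and 19 with the replicate block. The lowest count was of 19 tested, with the dimmest 60% left out, and with no filter 20 of 42 were called. The same-numbered arrays do not deviate together, so the block is no test of pairing here. Removing the 4 genes of other names, an alternative chosen after seeing the data, left 18 calls. The 8 rises among ligases stood under every alternative that tested them. Of 480 values of single family genes and tested neighbours under an alternative, 453 kept their direction and side of the threshold, 21 lost and 2 gained a call, and 4 turned direction. The latter were all of AT4G19450, beside AT4G19460, which did not pass: it stood at -0.031 (log2), and at 0.15 with quantile normalization, 0.022 without whole-root replicate 3, 0.15 without sorted-cell replicate 2 and 0.015 without sorted-cell replicate 3. Leaving out single arrays took it from -0.26 (sorted-cell replicate 1) to 0.15. The promoter comparison was not run.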
